A study of Mus musculus with 45 samples.

Results

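The question addressed here is how the effect of a small-molecule treatment on reprogramming fibroblasts changed between day 2 and day 10. Mouse embryonic fibroblasts (MEFs) with the Pax7-nGFP transgene, in which doxycycline switches on the muscle factor MyoD (genotype Tg:Pax7-nGFP/C57BL6;DBA2 in the labels), received doxycycline alone or doxycycline with F/R/C. The comparison used 4 groups of 3 RNA-seq libraries, namely MyoD alone on day 2, MyoD with F/R/C on day 2, MyoD alone on day 10 and MyoD with F/R/C on day 10. The labels call the cells of the first arm myotubes and those of the other muscle fibers and progenitor cells. They spell out neither the letters nor a dose. In the published procedure for induced myogenic progenitor cells (iMPCs) F/R/C stands for forskolin, RepSox and an inhibitor of the kinase GSK3. These 12 of the 45 libraries of the series carry the contrast. A further 18 libraries, of both arms on days 4, 6 and 8, were used as description only. Each library is a bulk culture, so fewer cells of a type and less RNA per cell cannot be told apart. Nothing in the labels says that replicates came from separate cultures or animals, so the p-values measure only the spread between these samples.

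Forskolin activates adenylyl cyclase, which makes cyclic AMP, RepSox blocks the kinase of the type I TGF-beta receptor, and inhibition of GSK3 stabilises beta-catenin, the transcriptional arm of Wnt signalling. MyoD drives fibroblasts out of the cell cycle and into fusion, whereas muscle stem cells are kept by Pax7 and by Notch signalling, in which ligands such as Dll1 on one cell activate receptors on a neighbour and induce genes of the Hey family. Fibroblasts under TGF-beta make matrix, and cultured fibroblasts secrete cytokines and chemokines.

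The effect of F/R/C on a day is the log2 fold change of MyoD with F/R/C over MyoD alone, and the interaction is the day-10 effect minus the day-2 effect. Of 35675 genes, 15687 had at least 10 reads in at least 3 of the 12 libraries and were tested with edgeR's quasi-likelihood test, with the replicate number as a block. Calls needed an adjusted p (Benjamini-Hochberg, over all tested genes) below 0.05 together with a log2 value of 1 or more in either direction, and adjusted p always refers to this test. The interaction was called in 2120 genes (13.5% of those tested), of which 783 were more positive on day 10 (4.99%) and 1337 more negative (8.52%). The fit without the replicate block called 1398 genes, 567 more positive and 831 more negative, of which 1386 were shared with the blocked fit. Without the libraries numbered 1, 2 or 3 the blocked fit called 285, 915 and 2361 genes. Leaving out library 3 of MyoD alone on day 2 gave 1345, and leaving out library 2 of F/R/C on day 2 gave 1332. The classes below differ in size between these fits. A rule chose 82 genes, mostly by a large called interaction or a small interaction p in this same fit, so most were bound to be called. Of these, 74 were called and 27 kept their call under each of 26 alternatives: Hgf, Wnt16, Dbh, Stum, Spon1, Moxd1, Ly6a, Aldh1a7, Ly6c1, Opcml, Stk26, Eya2, Kcnj12, Dpysl5, Tg, Heyl, Vcam1, Cdkn1c, Mymx, Fbln2, Bdnf, Timp1, Dll1, Mdm2, Csf1, Igfbp2 and Igfbp3. Of the 26, 1 dropped the fold threshold and so could lose no call.

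On day 2 the effect was called in 1383 genes (8.82%), 674 higher (4.30%) and 709 lower (4.52%) with F/R/C. By day 10 it was called in 4132 (26.3%), 1917 higher (12.2%) and 2215 lower (14.1%). A late-only effect, called in the interaction and on day 10 but not on day 2, was the most frequent pattern, with 1361 genes (8.68%), 445 higher and 916 lower with F/R/C. Early-only effects, called in the interaction and on day 2 but not on day 10, numbered 284 (1.81%), 149 higher and 135 lower. Reversing effects, called on both days with opposite signs, numbered 71 (0.453%), of which 39 went from higher to lower and 32 from lower to higher. Without the block the reversing genes were 32, 9 from higher to lower and 23 from lower to higher, and the early-only genes 153. A further 136 genes had a called effect of the same sign on both days and a called interaction, and 268 had a called interaction with a call on neither day. Most day-2 effects did not differ detectably by day 10, since the interaction was not called for 892 of the 1383 genes (64.5%). A missing call is not a missing effect. The day-10 effect was within 0.5 log2 units of zero in 158 of the 284 early-only genes, and the day-2 effect was within 0.5 in 845 of the 1361 late-only genes.

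**Figure D1:**
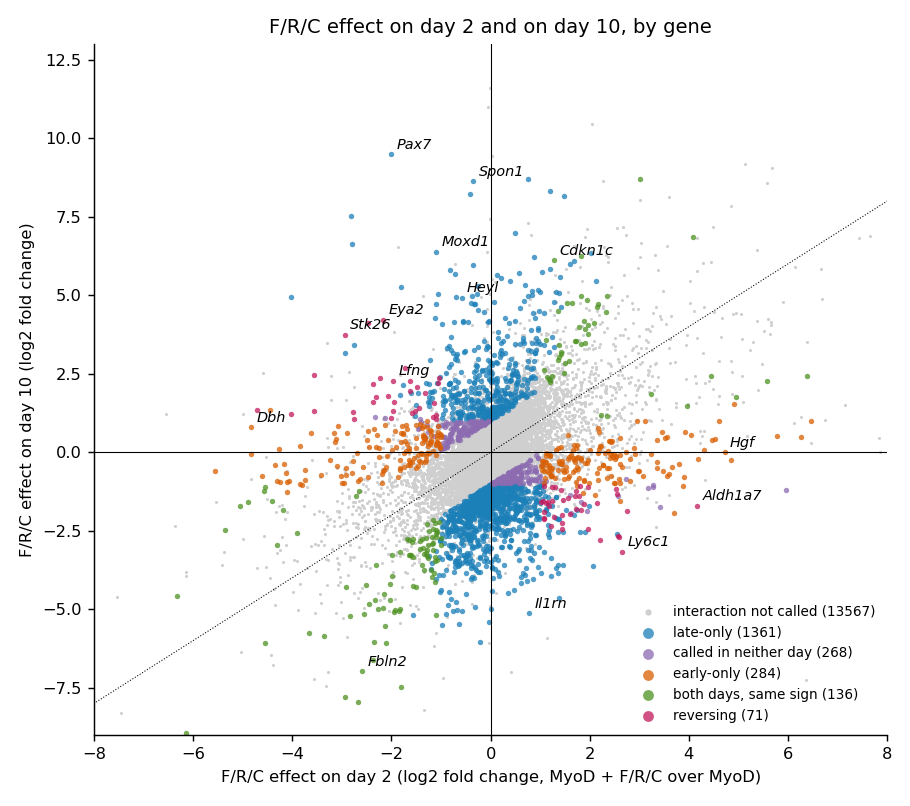
Each point is 1 of the 15687 genes, with the log2 F/R/C effect on day 2 on the x axis and on day 10 on the y axis, coloured by pattern, with the dotted line at equal effects; 6 genes lie outside the axes. Late-only genes spread along the y axis, early-only genes along the x axis, and the 71 reversing genes lie in the upper left and lower right.

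A changed effect can come from either arm. Of the 2120 genes, 1104 (52.1%) differed in level between days 10 and 2 in the F/R/C arm alone, 389 (18.3%) in the MyoD arm alone, 176 in both arms and 451 in neither by the same thresholds. Across all tested genes the level differed between the days in 3124 (19.9%) with F/R/C, 1789 up (11.4%) and 1335 down (8.51%). With MyoD alone it differed in 1587 (10.1%), 1118 up (7.13%) and 469 down (2.99%). Among late-only genes that were lower with F/R/C, 615 of 916 fell with time in the F/R/C arm and 176 rose with MyoD alone. Among late-only genes that were higher, 283 of 445 rose in the F/R/C arm and 108 fell with MyoD alone. The early-only genes were more evenly split, with 118 of 284 moving in the F/R/C arm alone and 99 in the MyoD arm alone. Among reversing genes both arms moved in 26 of 71.

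**Figure D2:**
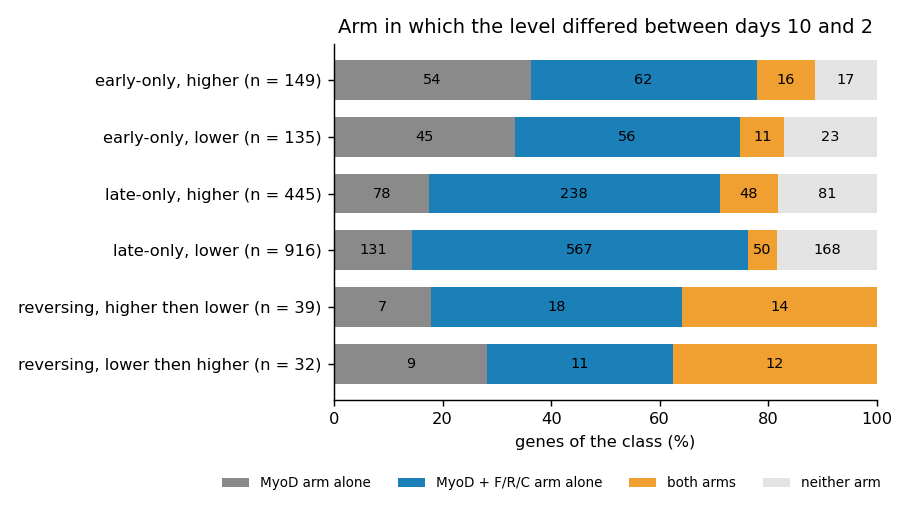
Bars give the percentage of each class whose level differed between days 10 and 2 with MyoD alone, with F/R/C alone, in both arms or in neither, with gene counts printed in the segments. The F/R/C arm alone is the longest segment for both late-only classes, 238 of 445 and 567 of 916 genes.

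Early-only genes that were higher with F/R/C included secreted signals. Hgf (chromosome 5, 16553495 to 16620152 in GRCm38), the growth factor that activates muscle stem cells through the receptor Met, measured 2.12, 1.004 and 2.16 CPM (reads scaled to 1 library total) in libraries 1, 2 and 3 of MyoD alone on day 2. With F/R/C on day 2 it measured 44.1, 29.5 and 54.6 CPM. On day 10 the values were 13.7, 1.39 and 8.82 CPM with MyoD alone and 10.8, 2.97 and 7.63 CPM with F/R/C. Thus the day-2 groups were far apart and the day-10 groups overlapped. The effect was 4.72 ± 0.46 on day 2 and -0.01 ± 0.40 on day 10 (log2 ± SE), an interaction of -4.73 ± 0.59 with adjusted p = 0.0015. Both arms moved, since Hgf rose by 1.95 log2 units with MyoD alone and fell by 2.78 with F/R/C.

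Cxcl1, a chemokine that attracts neutrophils, had day-2 values of 1.06, 0.892 and 1.76 CPM with MyoD alone and 24.4, 14.4 and 31.2 CPM with F/R/C. By day 10 they were 2.75, 1.16 and 19.9 CPM with MyoD alone and 11.4, 2.16 and 4.72 CPM with F/R/C, with library 3 of MyoD alone the highest. Its interaction was -4.23 ± 1.05 (adjusted p = 0.022), and the call was lost under 7 of 26 alternatives, each of them a left-out library or number. The cytokine Il33 went the same way, from 1.17 ± 0.594 CPM (mean ± SD, n = 3) with MyoD alone and 22.2 ± 7.98 CPM with F/R/C on day 2 to 11.2 ± 15.5 CPM with MyoD alone and 10.3 ± 7.96 CPM with F/R/C on day 10. Hsd3b6, a steroid dehydrogenase, Serpina3g, a serine protease inhibitor, and Atp1b4, a muscle protein related to the beta subunits of the sodium pump, had the other large changes, with interactions of -4.97 ± 1.27, -4.30 ± 0.90 and -5.25 ± 1.61. The call of Hsd3b6 was lost under 11 of 26 alternatives, among them limma-voom and the fit without the block, and that of Serpina3g under 4, also without the block. Atp1b4 differed from the rest in its levels. It was at or near 0 on day 2 with MyoD alone (0, 0.0558 and 0 CPM), reached 24.5, 52.5 and 20.7 CPM there by day 10, and its call was lost under 18 of 26 alternatives.

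Among early-only genes that were lower with F/R/C were several in which the F/R/C arm rose between the days toward the level of MyoD alone. Dbh (chromosome 2, 27165233 to 27183200), which converts dopamine to noradrenaline, measured 11.2, 31.1 and 17.05 CPM with MyoD alone on day 2 and 0.445, 1.25 and 0.368 CPM with F/R/C. On day 10 it measured 4.33, 6.82 and 2.97 CPM with MyoD alone and 3.78, 6.33 and 14.7 CPM with F/R/C. Both arms moved, since Dbh rose by 3.65 log2 units between the days with F/R/C and fell by 1.97 with MyoD alone. The interaction was 5.62 ± 0.76, and untreated MEFs averaged 0.0374 CPM. Stum stood at 16.4, 17.2 and 21.7 CPM with MyoD alone on day 2 against 0.534, 0.416 and 0.230 CPM with F/R/C, and at 24.4, 45.8 and 12.5 CPM with MyoD alone and 8.80, 22.5 and 22.6 CPM with F/R/C on day 10. Rgs14, a regulator of G protein signalling, and Cd40, a receptor of the TNF receptor family, had interactions of 4.23 ± 0.69 and 3.94 ± 0.73. Wnt16, a Wnt ligand, moved in the other arm: it fell with MyoD alone, from 3.86, 7.25 and 7.40 to 0.0903, 0.232 and 0.239 CPM, and was between 0.151 and 0.705 CPM in the 6 F/R/C libraries.

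Genes of early muscle differentiation were among the early-only lower genes. The list of 20 such genes had 7 called in the interaction, Myog, Mymk, Mymx, Actc1, Tnnt2, Myl4 and Cdkn1c, all more positive on day 10 (4.99% of all tested genes were). Of the 20, 5 were lower with F/R/C on day 2 and 1 higher, and on day 10 none was lower and 2 were higher. Mymx (chromosome 17, 45600971 to 45602102), a small membrane protein that fuses myoblasts, measured 95.3, 131 and 133 CPM with MyoD alone on day 2 and 32.9, 48.8 and 26.6 CPM with F/R/C, without overlap. On day 10 the values were 44.5, 62.9 and 41.5 CPM with MyoD alone and 61.6, 97.01 and 71.3 CPM with F/R/C, so the effect went from -1.77 ± 0.16 to 0.63 ± 0.16. The interaction was 2.39 ± 0.23 (adjusted p = 6.0e-04). Mymk, its partner in fusion, had a day-2 effect of -1.58 ± 0.20 and a day-10 effect of -0.33 ± 0.19. Its level with MyoD alone fell from 1134, 1869 and 1352 to 552, 1118 and 458 CPM. Its call was lost without the replicate block. The embryonic sarcomere genes Tnnt2 and Myl4 were early-only too, with day-2 effects of -1.46 ± 0.23 and -1.41 ± 0.24. Myog, the transcription factor that commits myoblasts to differentiate, had an interaction of 1.78 ± 0.40 with effects of -0.87 and 0.90 that were not called on either day, whereas Actc1, cardiac alpha-actin, was late-only with a day-10 effect of 1.42 ± 0.24. The unblocked fit called 2 of the list more positive, and so did the fit without the libraries numbered 1.

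Myod1 itself bears on this list. Its level was 1979, 3476 and 2257 CPM with MyoD alone and 796, 1334 and 723 CPM with F/R/C on day 2, and 723, 1896 and 610.2 CPM with MyoD alone and 633, 1024 and 764 CPM with F/R/C on day 10. The effect was -1.45 ± 0.21 on day 2 and -0.27 ± 0.21 on day 10, an early-only pattern (interaction 1.18 ± 0.30). Reads of the induced transgene and of the resident gene cannot be told apart in these counts, and the part of the MyoD level in the differentiation genes was not tested.

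Dag1, dystroglycan, was early-only and lower. It measured 701, 872 and 844 CPM with MyoD alone and 378, 416 and 371 CPM with F/R/C on day 2, and 419, 457 and 326 CPM and 375, 512 and 554 CPM on day 10. Egln3, an oxygen-sensing prolyl hydroxylase, started at 138, 139 and 97.8 CPM with MyoD alone and 31.1, 24.5 and 11.7 CPM with F/R/C and overlapped between the arms on day 10 (60.2, 68.97 and 43.5 CPM with MyoD alone and 56.2, 47.9 and 111 CPM with F/R/C). En1, a homeobox factor, was higher with F/R/C on day 2 only, 13.5, 15.9 and 22.2 against 6.55, 8.09 and 8.63 CPM, and its interaction of -1.25 ± 0.26 was not called without the block.

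**Figure D3:**
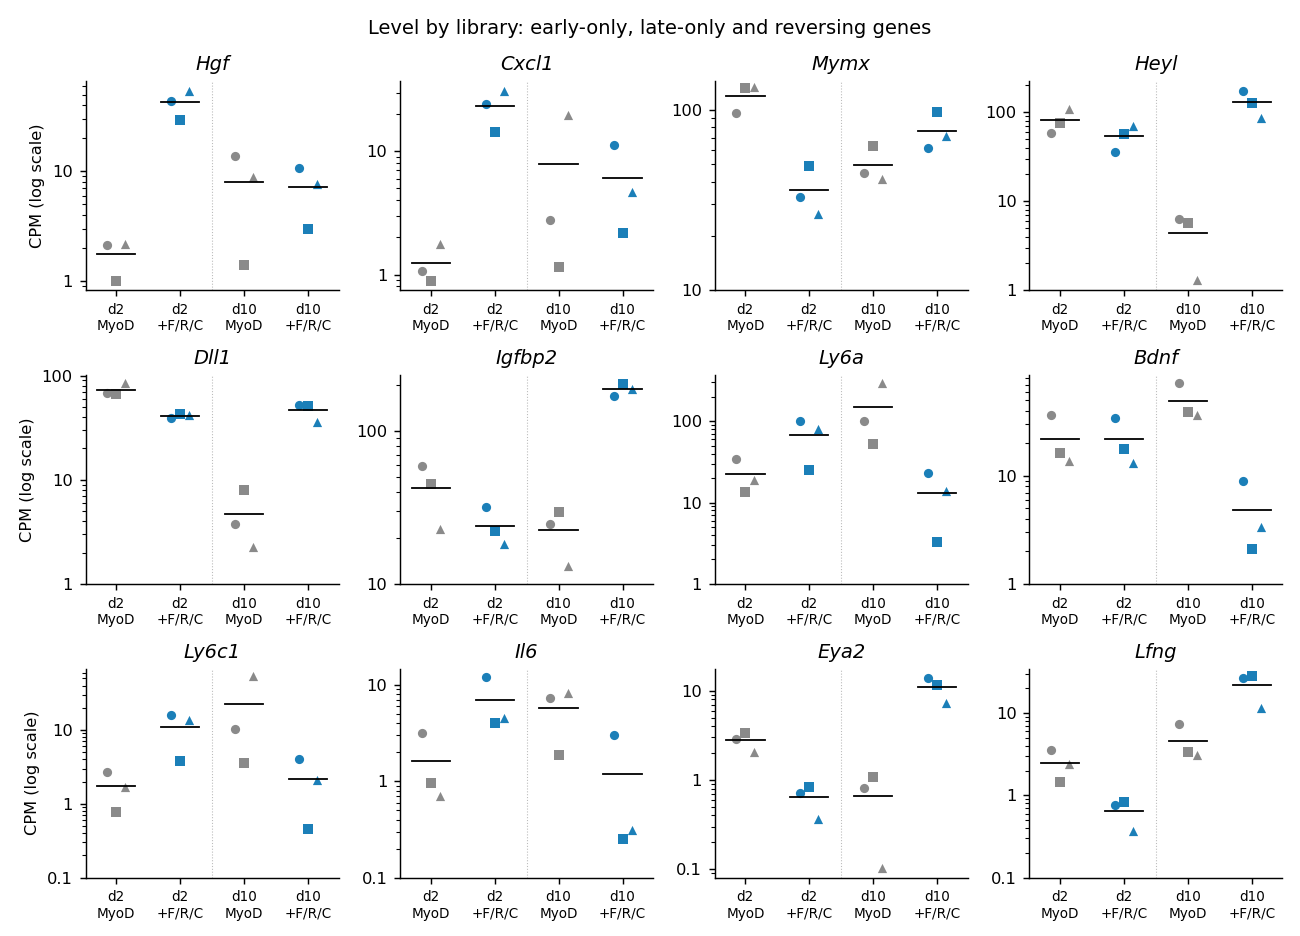
Points are CPM on a log axis in single libraries (circle, square and triangle for libraries 1, 2 and 3), grey for MyoD alone and blue for MyoD with F/R/C, and bars are group means. For Hgf, Cxcl1 and Mymx the arms are apart on day 2, for Heyl, Dll1, Igfbp2, Ly6a and Bdnf they are apart on day 10, and for Ly6c1, Il6, Eya2 and Lfng the order of the arms turns.

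Late-only genes that were higher with F/R/C included progenitor and Notch genes. Heyl (chromosome 4, 123233556 to 123249875), a Notch-induced repressor expressed in muscle stem cells, measured 57.98, 76.2 and 109 CPM with MyoD alone and 35.3, 56.3 and 70.6 CPM with F/R/C on day 2. On day 10 MyoD alone had 6.28, 5.62 and 1.30 CPM and F/R/C 175, 128 and 86.9 CPM, with no overlap. The effect went from -0.59 ± 0.49 to 4.92 ± 0.59, an interaction of 5.51 ± 0.75 (adjusted p = 0.002). What moved was MyoD alone, which fell by 4.27 log2 units, while the change of 1.24 ± 0.50 with F/R/C was not called. Dll1 (chromosome 17, 15367354 to 15376872), the Notch ligand, gave the same picture, with 68.1, 66.8 and 84.9 CPM (MyoD alone) and 39.3, 42.9 and 41.9 CPM (F/R/C) on day 2 and 3.75, 7.98 and 2.26 CPM with MyoD alone and 52.2, 51.5 and 35.7 CPM with F/R/C on day 10. The day-2 groups did not overlap either, but the effect of -0.84 ± 0.31 was not called. MyoD alone fell by 4.08 log2 units and the F/R/C arm changed by 0.15 ± 0.31, and the interaction was 4.23 ± 0.47.

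Of 15 tested Notch genes 4 were called in the interaction, all more positive (4.99% of all tested genes were). The unblocked fit also called 4, and the fits without the libraries numbered 1 and 2 called 2 and 3. Beside Heyl and Dll1 these were Hey1, higher with F/R/C on both days with an effect that grew from 1.35 ± 0.40 to 4.49 ± 0.46, and Lfng, a reversing gene described with that class. The receptors Notch1 and Notch3 were higher with F/R/C on both days (day-10 effects of 1.96 ± 0.31 and 2.33 ± 0.26), but their interactions of 0.95 ± 0.42 and 0.96 ± 0.35 were not called. Hes1 had effects of -0.91 and -0.69 on day 2 and day 10 and an interaction of 0.22 ± 0.19.

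The 14 tested progenitor genes had 6 called more positive and 2 more negative, with 6 and 1 in the unblocked fit and 2 and 1 without the libraries numbered 1. Over all tested genes the blocked fit called 4.99% more positive and 8.52% more negative. In the blocked fit the 6 include Heyl, also counted among the Notch genes, and Pax7. Pax7 passed the filter through the day-10 F/R/C libraries alone, so the filter itself required reads there. Spry1, a brake on growth factor signalling in quiescent muscle stem cells, had a late-only effect of 1.09 ± 0.25, and Cxcr4, a chemokine receptor, one of 4.07 ± 0.79 at low levels (5.93, 3.37 and 8.22 CPM with F/R/C on day 10). Fgfr4, a receptor of muscle progenitors, was higher on both days and more so on day 10 (1.95 ± 0.42 and 4.86 ± 0.43). Vcam1 and Chodl went the other way. Vcam1, an adhesion molecule, measured 85.6, 47.96 and 81.1 CPM with MyoD alone and 168, 119 and 183 CPM with F/R/C on day 2 and 230.1, 103 and 333 CPM with MyoD alone and 65.9, 18.9 and 19.7 CPM with F/R/C on day 10, an interaction of -3.88 ± 0.54. Chodl, a membrane lectin, was at 8.13, 13.97 and 3.18 CPM with MyoD alone on day 10 and at 0.871, 1.51 and 0.451 CPM with F/R/C (interaction -3.67 ± 0.81).

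Some genes were silent on day 2, so their interaction could not be estimated well. Pax7 (chromosome 4, 139737062 to 139833528) had 1 read over the 6 day-2 libraries, although the labels name progenitor cells in the F/R/C arm at that time. On day 10 it measured 0.0451, 0.186 and 0.0342 CPM with MyoD alone and 78.99, 70.1 and 46.3 CPM with F/R/C, an effect of 9.50 ± 0.40. Its interaction of 11.51 ± 2.77 rests on that single read and was not called in 5 of 26 alternatives, among them the fit without library 1 of MyoD alone on day 2, which held it. Whether the Pax7-nGFP transgene adds reads to Pax7 was not tested. Myf5, the muscle determination factor, had no read on day 2 in either arm or on day 10 with MyoD alone, and 1.99, 3.52 and 5.41 CPM with F/R/C on day 10. In all, 66 genes were called on day 10 with at most 3 reads in each of the 6 day-2 libraries, 55 higher and 11 lower with F/R/C, and 9 of them were called in the interaction. Such genes could pass the filter of 10 reads in 3 libraries only through day-10 libraries. Reads on day 10 were thus a condition for testing them, and these counts describe a selected set. In the whole tested set, the day-10 effect was called upward in 12.2% and downward in 14.1%. The homeobox factors Dbx1, known from neural tube progenitors, and Lhx3, known from motor neurons and pituitary, had no read in the other 3 groups and measured 13.9, 19.6 and 17.5 CPM and 24.8, 11.8 and 1.14 CPM with F/R/C on day 10. Against a floor of 3 reads per library the means of these 3 libraries were at least 135-fold and 99.98-fold higher than with MyoD alone. Both genes passed the filter through these 3 libraries alone, so the filter itself required reads there. The mean of Lhx3 rests mostly on library 1, and its library 3 at 1.14 CPM lay well under that fold. Lhx3 was uneven across its 3 libraries and Dbx1 was not. Edn3, the ligand endothelin 3, followed with 4.36, 2.06 and 15.7 CPM, and Ndufa4l2 with 2.28, 2.56 and 14.9 CPM.

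The largest late-only increases in genes with day-2 reads were those of Spon1, Msc, Moxd1 and Hif3a, after Pax7. Moxd1 (chromosome 10, 24223517 to 24302790), an enzyme related to Dbh, measured 1.49, 1.12 and 1.01 CPM with MyoD alone and 0.711, 0.416 and 0.552 CPM with F/R/C on day 2, and 1.13, 0.928 and 1.78 CPM with MyoD alone and 91.9, 156 and 85.6 CPM with F/R/C on day 10. Every F/R/C library of day 10 was over 85 CPM and the other 9 were under 2 CPM. The interaction was 7.48 ± 0.53, and the F/R/C arm rose by 7.60 log2 units. Spon1, a secreted matrix protein, reached 34.1, 73.9 and 44.6 CPM and fell with MyoD alone to 0.0903, 0.0464 and 0.239 CPM (interaction 8.98 ± 0.69). Msc, a repressor that competes with MyoD for its sites, reached 29.1, 67.5 and 32.3 CPM from at most 0.264 CPM in the other libraries. Hif3a, a hypoxia-inducible factor subunit, reached 9.38, 15.7 and 17.97 CPM. In total, Msc had 9 and 7 reads on day 2 (MyoD alone and F/R/C) and 10 with MyoD alone on day 10. Hif3a had 3, 8 and 3 reads in the same groups. Both passed the filter through the day-10 F/R/C libraries alone, so the filter itself required reads there.

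In the family of insulin-like growth factors, activins and myostatin, effects differed between the days in both directions. Igfbp2, a binding protein of these factors, measured 58.8, 44.7 and 22.8 CPM with MyoD alone and 31.8, 22.1 and 18.1 CPM with F/R/C on day 2 and 24.7, 29.5 and 13.1 CPM with MyoD alone and 169.8, 203 and 187 CPM with F/R/C on day 10. The groups overlapped on day 2 and were apart on day 10 (interaction 3.92 ± 0.38). Igfbp4 and Igfbp5 had interactions of 1.25 ± 0.25 and 1.71 ± 0.33. Mstn, myostatin, which limits muscle growth, had effects of 7.65 ± 0.40 and 6.90 ± 0.37, high on both days, and its interaction of -0.75 ± 0.48 was not called. Fst, its antagonist follistatin, was late-only lower at -3.90 ± 0.44. So were Inhba, the activin A subunit, and Igfbp7, at -2.97 ± 0.19 and -2.68 ± 0.25, while Inhbb, the activin B subunit, was early-only higher at 2.45 ± 0.43. The 15 genes of this family thus split into 4 more positive and 4 more negative, and into 2 and 2 without the libraries numbered 1. In the main fit 4.99% of all tested genes were more positive and 8.52% more negative.

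Of the 23 tested genes of mature fibres, 4 were called, 3 more positive and 1 more negative. Over all tested genes 13.5% were called, 4.99% more positive and 8.52% more negative, so this list was not far from that share. Myoz1, a Z-disc protein of fast fibres, went from 0.964, 1.67 and 1.23 CPM with MyoD alone and 1.24, 2.17 and 3.08 CPM with F/R/C on day 2 to 0.858, 2.55 and 1.16 CPM with MyoD alone and 27.6, 35.2 and 149 CPM with F/R/C on day 10. Library 3 was the highest of these. Pvalb, the calcium buffer of fast fibres, was late-only higher at a low level (2.90, 2.71 and 11.03 CPM), and Trim63, a ubiquitin ligase of muscle atrophy, was called in the interaction but on neither day. Myh2, a fast myosin, was early-only higher (2.16 ± 0.29, then 0.77 ± 0.27). Myh1, another fast myosin, had effects of 5.05 ± 0.42 and 4.41 ± 0.41, and Mb, myoglobin, of -2.86 ± 0.42 and -2.81 ± 0.43. Neither interaction was called.

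Cdkn1c, a cyclin-dependent kinase inhibitor that MyoD induces in differentiating muscle, had the largest change among genes of the differentiation list. It measured 378, 571 and 567 CPM with MyoD alone and 918, 1342 and 1404 CPM with F/R/C on day 2, and 22.6, 69.1 and 21.1 CPM with MyoD alone and 2114, 3042 and 2020.3 CPM with F/R/C on day 10. The groups were apart on both days. The effect grew from 1.28 ± 0.30 to 6.12 ± 0.37, with MyoD alone falling by 3.89 log2 units.

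Genes that were lower with F/R/C by day 10 included fibroblast, matrix, cytokine and p53-linked genes. The interaction counts of these and later lists stand beside 8.52% of all tested genes more negative and 4.99% more positive. The 19 tested fibroblast genes had 9 called more negative and 1 more positive. Their median effect was 0.92 on day 2 and -1.42 on day 10, beside medians of 0.01 and -0.00 over all tested genes. The summed level of the list, which weighs abundant genes most, was lower with F/R/C on both days. On day 2 it was 21095, 14262 and 16694 CPM with MyoD alone and 8639, 5610 and 7806 CPM with F/R/C. On day 10 it was 35814, 15301 and 25045 CPM with MyoD alone and 3866, 1735 and 5886 CPM with F/R/C. Ly6a (chromosome 15, 74994877 to 74998031), the surface antigen Sca-1 of fibroblasts and mesenchymal progenitors, measured 34.7, 13.4 and 19.1 CPM with MyoD alone and 101, 25.2 and 79.7 CPM with F/R/C on day 2. On day 10 it measured 101, 53.1 and 297 CPM with MyoD alone and 22.8, 3.32 and 13.8 CPM with F/R/C. The day-2 groups overlapped and the day-10 groups did not. Within each number F/R/C was higher on day 2, by 1.55, 0.90 and 2.03 log2 units, and the effect of 1.45 ± 0.44 was not called (adjusted p = 0.055). MyoD alone rose by 2.59 log2 units, the F/R/C arm fell by 2.45, and the interaction was -5.04 ± 0.65 (adjusted p = 0.0017). Thy1, Twist1 and S100a4 were late-only lower at -1.98 ± 0.40, -1.42 ± 0.25 and -3.41 ± 0.38. Postn, periostin, was the exception, late-only higher at 1.89 ± 0.43. Prrx1 was early-only higher (1.82 ± 0.30, then -0.24 ± 0.30), and Lum, lumican, was higher with F/R/C on both days (5.66 ± 0.70 and 4.04 ± 0.50). The unblocked fit called 6 of the list more negative, and the fit without the libraries numbered 1 called 3.

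Targets of TGF-beta were already lower on day 2 and lower still on day 10. Of 20, 12 were lower on day 2 and 15 on day 10, and 11 were more negative in the interaction against 1 more positive, with medians of -1.17 and -2.26. Timp1, a metalloproteinase inhibitor, measured 192, 99.99 and 184 CPM with MyoD alone and 96.3, 44.8 and 75.7 CPM with F/R/C on day 2 and 341, 174 and 374 CPM with MyoD alone and 34.3, 10.4 and 20.3 CPM with F/R/C on day 10, effects of -1.15 ± 0.17 and -3.84 ± 0.19. Fbln2, a matrix fibulin counted in the fibroblast list, had effects of -2.60 ± 0.29 and -6.98 ± 0.36, and fell to 26.9, 10.4 and 30.4 CPM with F/R/C while MyoD alone stood at 3933, 1801 and 2764 CPM. Fn1, fibronectin, of the same list, went from -2.14 ± 0.26 to -4.53 ± 0.28, and Thbs1, thrombospondin 1, from -1.57 ± 0.24 to -4.27 ± 0.27. Members with no called interaction included Pmepa1, at -3.97 ± 0.32 and -3.42 ± 0.32, and Acta2, smooth muscle actin, at -1.13 ± 0.25 and -1.10 ± 0.25. Without the block 3 of the list were called more negative, and as many without the libraries numbered 1.

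Of 20 matrix genes 7 were more negative and 1 more positive, and the unblocked fit called 1 more negative and none more positive. The list was split on each day. On day 2, 5 were called higher with F/R/C and 3 lower, and on day 10, 7 higher and 9 lower. The median effects were -0.46 and -0.83. Without the libraries numbered 1 none was more negative. Col8a1 and Fbln5, a network collagen and an elastic-fibre protein, had day-10 effects of -3.46 ± 0.32 and -4.04 ± 0.43. Col15a1, a basement-membrane collagen, was the positive one, with 9.06, 7.58 and 17.1 CPM with MyoD alone and 33.7, 29.3 and 62.2 CPM with F/R/C on day 2 and 17.7, 6.96 and 25.7 CPM with MyoD alone and 220.3, 192 and 289.6 CPM with F/R/C on day 10. Library 2 was the lowest in each group and the arms did not overlap on either day. Col6a2, a chain of collagen VI, was higher with F/R/C on both days (2.06 ± 0.45 and 2.49 ± 0.45), with no called interaction.

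Secreted inflammatory factors had the largest shift in the median fitted effect of the 17 lists, from 2.20 on day 2 to -0.98 on day 10. Of 15 tested, 9 were called more negative and 1 more positive, and on day 2 itself 4 were higher and 1 lower. By log2 differences between same-numbered libraries the medians were 1.81 and -0.43. The summed level of the list was lower with F/R/C within each number on both days. On day 2 it was 1418, 771 and 800 CPM with MyoD alone and 1022, 520 and 556 CPM with F/R/C. On day 10 it was 1686, 826 and 1622 CPM with MyoD alone and 292, 66.8 and 278 CPM with F/R/C. Csf1, the macrophage growth factor, measured 906, 584 and 585 CPM with MyoD alone and 409.5, 298 and 244 CPM with F/R/C on day 2 and 739, 479.5 and 649 CPM with MyoD alone and 61.5, 23.2 and 29.3 CPM with F/R/C on day 10, effects of -1.12 ± 0.20 and -4.13 ± 0.22. Ptgs2, the inducible cyclooxygenase, was late-only lower, at -0.07 ± 0.38 and then -3.46 ± 0.42. Cxcl12, a chemokine of fibroblasts, reached 591, 134 and 134 CPM with MyoD alone on day 10 against 16.4, 4.32 and 21.9 CPM with F/R/C. Mmp9, a matrix protease, was the positive one, with a day-10 effect of 5.69 ± 0.98. Il1rn, the antagonist of the interleukin-1 receptor, had an interaction of -5.90 ± 1.25, from 1.98, 0.390 and 0.529 CPM with MyoD alone and 2.85, 0.509 and 1.43 CPM with F/R/C on day 2 to 3.79, 10.1 and 9.81 CPM with MyoD alone and 0.996, 0.0503 and 0.0694 CPM with F/R/C on day 10. The unblocked fit called 3 of the list more negative, the fit without the libraries numbered 1 also 3, and that without number 2 called 2. Markers of macrophages summed to between 2.79 and 7.32 CPM in the day-2 libraries, between 8.78 and 13.96 CPM with MyoD alone on day 10 and between 6.37 and 6.91 CPM with F/R/C, over 8 genes of which Adgre1 was at 0 in 3 of the 4 groups. Csf1r, the receptor of Csf1, was the 1 of these 5 tested markers called. Their part in the result was not tested.

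The largest late-only decreases also included Car8, a carbonic anhydrase relative without the enzyme's activity, at 14.7, 9.93 and 11.4 CPM with MyoD alone and 0.332, 0 and 0.451 CPM with F/R/C on day 10, and Malrd1 with 9.44, 5.89 and 23.4 CPM with MyoD alone and 0.498, 0.101 and 0.0694 CPM with F/R/C. Csprs had 6.46, 8.82 and 2.91 CPM with MyoD alone and no read with F/R/C. It lies on an unplaced scaffold. Among the genes named, Ly6a, Ly6c1, Aldh1a7 and Serpina3g belong to families of similar genes. They and others had estimated counts that were not whole in all 12 libraries, so some of their reads were divided by estimate.

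The response genes of cyclic AMP went from a median effect of 0.92 to -0.34, with 8 of 20 called more negative and 1 more positive, and with 7 and 0 called by the unblocked fit. Without the libraries numbered 1, 2 were called more negative and none more positive. On day 2, 6 were called higher with F/R/C and 0 lower, and on day 10, 3 higher and 4 lower. The summed level of the list was apart between the arms on day 2 and overlapped on day 10. On day 10 it was 850, 653 and 710 CPM with MyoD alone and 843, 735 and 880 CPM with F/R/C. Pde10a, a phosphodiesterase that degrades cyclic AMP, measured 22.3, 18.3 and 20.6 CPM with MyoD alone and 66.8, 51.3 and 62.5 CPM with F/R/C on day 2, then 34.2, 19.1 and 27.4 CPM with MyoD alone and 27.5, 21.5 and 19.9 CPM with F/R/C, an early-only increase of 1.56 ± 0.14. Crem and Vgf were early-only higher as well (1.06 ± 0.23 and 3.91 ± 0.48). Bdnf, a neurotrophin, was late-only lower: 36.5, 16.3 and 13.7 CPM with MyoD alone and 34.6, 17.9 and 13.2 CPM with F/R/C on day 2, 72.4, 38.7 and 36.9 CPM with MyoD alone and 9.003, 2.11 and 3.36 CPM with F/R/C on day 10. Its effect was 0.01 ± 0.21 on day 2 and -3.49 ± 0.23 on day 10. The nuclear receptor genes Nr4a1 and Nr4a2 were late-only lower at -1.60 ± 0.26 and -2.07 ± 0.21. Pde4b was higher on both days (1.90 ± 0.22 and 1.52 ± 0.22), and Sik1, a kinase induced by cyclic AMP, was late-only higher at 1.38 ± 0.19.

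Targets of beta-catenin did not move as a block, with 4 of 15 more positive and 3 more negative (4.99% and 8.52% of all tested genes). Lgr5, the R-spondin receptor, was late-only higher, from 1.06, 1.51 and 2.07 CPM with MyoD alone and 3.02, 3.42 and 8.56 CPM with F/R/C on day 2 to 0.587, 0.696 and 0.205 CPM with MyoD alone and 32.5, 45.99 and 20.1 CPM with F/R/C on day 10. Ccnd1, cyclin D1, was late-only lower at -1.64 ± 0.22. Nkd2 was early-only higher at 2.50 ± 0.48. Axin2, a feedback target, had effects of 1.44 ± 0.41 and 0.96 ± 0.39, called on day 2, with an interaction of -0.48 ± 0.55 that was not called.

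The 24 genes of replication and mitosis had a median effect of 0.84 on day 2 and 1.84 on day 10. None was lower with F/R/C, 2 were called higher on day 2 and 20 on day 10. All 24 interactions were positive, but only those of Ccne1 and Cdt1 were called. Ccne1, cyclin E1, had 25.3, 12.99 and 23.4 CPM with MyoD alone and 46.2, 43.7 and 65.7 CPM with F/R/C on day 2 and 27.3, 11.3 and 27.2 CPM with MyoD alone and 196, 179 and 122 CPM with F/R/C on day 10. Mki67 had an interaction of 1.48 ± 0.88 (adjusted p = 0.26) and Mcm6 of 1.47 ± 0.47 (adjusted p = 0.055). On day 2 the summed level of the list was 760, 485 and 954 CPM with MyoD alone and 1135, 1007 and 1454 CPM with F/R/C, without overlap. In the MyoD arm on day 10 it was 925, 194 and 873 CPM, so library 2 stood apart. With F/R/C it was 2536, 2201 and 1217 CPM. The unblocked fit called none of the 24, and the calls of Ccne1 and Cdt1 were lost under 9 and 15 of 26 alternatives.

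The list of kinase inhibitors and p53 targets had 6 of 16 more negative and none more positive, with 6 and 0 in the unblocked fit and 1 without the libraries numbered 1. Mdm2, the p53-induced ligase that degrades p53, measured 235, 179 and 195 CPM with MyoD alone and 216, 167 and 189 CPM with F/R/C on day 2, which overlap. On day 10 it measured 258, 240.4 and 313 CPM with MyoD alone and 91.2, 81.8 and 96.2 CPM with F/R/C, which do not. Its interaction was -1.50 ± 0.16 (adjusted p = 9.2e-04). Ccng1 and Cdkn2b, the second a CDK inhibitor induced by TGF-beta, were late-only lower at -1.37 ± 0.16 and -2.31 ± 0.27. Cdkn1a, the main p53-induced inhibitor, had effects of -0.73 ± 0.13 and -0.62 ± 0.13 and no called interaction.

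The remaining lists had few calls, to be read beside 4.99% more positive and 8.52% more negative over all tested genes. Cholesterol synthesis had 4 of 20 more positive and none more negative. The unblocked fit also called 4, but none was called without the libraries numbered 1 or without those numbered 2. Only 1 was called when library 2 of F/R/C on day 10, library 1 of MyoD alone on day 2 or library 2 of F/R/C on day 2 was left out. None of the 20 was called on day 2 and 7 were higher on day 10. Srebf2, its master regulator, measured 251, 294 and 291 CPM with MyoD alone and 195, 209 and 249.6 CPM with F/R/C on day 2 and 177, 173 and 151 CPM with MyoD alone and 349.7, 383 and 269 CPM with F/R/C on day 10, without overlap on either day and in opposite order, although neither single-day effect reached 1. Idi1, Fdft1 and Nsdhl were late-only higher at 1.88 ± 0.21, 1.15 ± 0.17 and 1.18 ± 0.19. In glycolysis and hypoxia 3 of 15 were more positive, Egln3, Ndrg1 and Pdk1, the last with a day-10 effect of 1.56 ± 0.35. Of 15 interferon genes, Bst2 was more positive and Ifit1 and Ddx58 more negative, and the unblocked fit called none. Of 11 homeobox genes En1, Msx2 and Sim1 were more negative, none of them without the block. Without the libraries numbered 1 no member of these 4 lists was called, nor of the lists of mature fibres, beta-catenin targets, and replication and mitosis. The median effect of the homeobox list went up, from 0.08 to 0.94, while the median interaction was -0.16. The day-10 median includes Dbx1 and Lhx3, which passed the filter through the day-10 F/R/C libraries alone. The summed level of the list was already higher with F/R/C on day 2. It was 75.3, 93.2 and 97.6 CPM with MyoD alone and 215, 293 and 270 CPM with F/R/C.

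**Figure D4:**
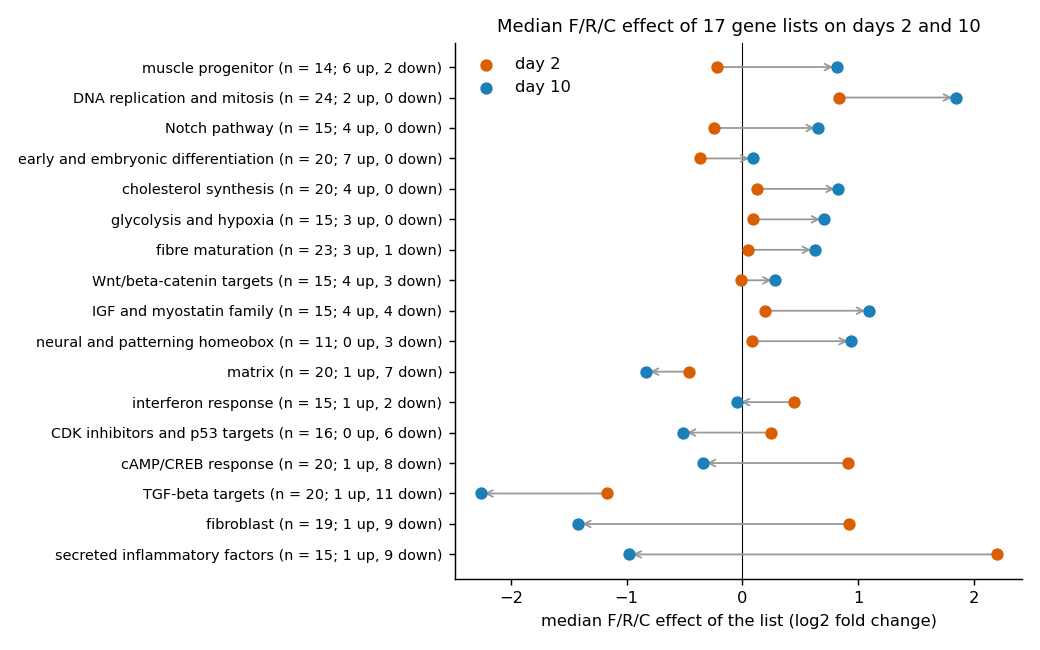
For each of 17 gene lists the orange point is the median log2 F/R/C effect on day 2 and the blue point that on day 10, with the number of tested members and of members called more positive (up) or more negative (down) in the interaction. The median of the secreted inflammatory list crosses from 2.20 to -0.98 and that of the fibroblast list from 0.92 to -1.42. The summed CPM of both lists was lower with F/R/C on both days within each number. The median of the progenitor list goes from -0.21 to 0.82, and Pax7 and Myf5 of that list passed the filter through the day-10 F/R/C libraries alone.

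The 71 reversing genes had effects of opposite sign on day 2 and day 10. The bases before the start of 4 of them are shown as examples, because the order of the arms turned at these genes. They were chosen after their values were seen, and each holds the E-box preferred by MyoD (CAGCTG) or the AP-1 motif (TGANTCA), both searched on both strands, as do other genes of the class. They are shown 5′ to 3′ on the gene's strand with the motif in capitals, from RefSeq on GRCm38.p6, up to 250 bases and without bases of an annotated exon.
Ly6c1, chr15:75048838-75049087 (minus strand): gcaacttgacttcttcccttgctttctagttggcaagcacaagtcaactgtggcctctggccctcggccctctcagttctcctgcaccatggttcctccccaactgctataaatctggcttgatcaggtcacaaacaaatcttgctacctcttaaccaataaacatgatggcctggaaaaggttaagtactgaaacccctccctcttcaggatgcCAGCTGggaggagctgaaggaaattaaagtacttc
Xirp2, chr2:67445752-67446001 (plus strand): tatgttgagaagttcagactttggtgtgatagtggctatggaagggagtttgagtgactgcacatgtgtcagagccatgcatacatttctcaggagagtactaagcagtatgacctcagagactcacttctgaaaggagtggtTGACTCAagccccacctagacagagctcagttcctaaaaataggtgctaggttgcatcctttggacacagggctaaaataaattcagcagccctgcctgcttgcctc
Il6, chr5:30012864-30013113 (plus strand): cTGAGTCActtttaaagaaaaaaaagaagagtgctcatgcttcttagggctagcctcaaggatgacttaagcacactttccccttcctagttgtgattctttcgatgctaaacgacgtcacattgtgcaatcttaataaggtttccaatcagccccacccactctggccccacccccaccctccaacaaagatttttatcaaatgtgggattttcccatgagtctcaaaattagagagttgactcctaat
Lfng, chr5:140607091-140607319 (plus strand): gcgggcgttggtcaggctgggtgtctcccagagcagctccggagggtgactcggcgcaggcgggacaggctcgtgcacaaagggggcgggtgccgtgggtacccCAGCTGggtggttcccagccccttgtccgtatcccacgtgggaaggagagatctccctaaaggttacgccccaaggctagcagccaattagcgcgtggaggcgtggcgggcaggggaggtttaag
The E-box begins at base -35 from the start of Ly6c1 and at -146 from that of Lfng. The AP-1 site begins at -107 in Xirp2 and at -249 in Il6. Among the windows of 11547 tested genes that had one (73.6% of those tested), 12.5% held this E-box and 4.57% this AP-1 site. A match is a description of the letters and was not tested for binding, and shares by class are not given.

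Ly6c1 (chromosome 15, 75044018 to 75048830), a surface antigen of the same family as Ly6a, measured 2.70, 0.781 and 1.72 CPM with MyoD alone and 16.1, 3.84 and 13.5 CPM with F/R/C on day 2. On day 10 it measured 10.3, 3.62 and 53.4 CPM with MyoD alone and 4.02, 0.452 and 2.12 CPM with F/R/C, which overlap. Library 2 was the lowest in every group, and within each number F/R/C was higher on day 2 and lower on day 10. The effects were 2.66 ± 0.63 and -3.17 ± 0.64.

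Aldh1a7, an aldehyde dehydrogenase, had the largest interaction of the genes that went from higher to lower, -5.87 ± 0.70. It rested on the F/R/C arm, which fell from 82.9, 96.8 and 79.99 to 4.40, 2.41 and 1.91 CPM, while MyoD alone had 10.3, 4.74 and 1.54 CPM on day 2 and 8.67, 6.78 and 10.7 CPM on day 10. Il6 (chromosome 5, 30013114 to 30019981), an inflammatory cytokine that muscle also makes, measured 3.18, 0.948 and 0.705 CPM with MyoD alone and 12.05, 3.98 and 4.51 CPM with F/R/C on day 2 and 7.18, 1.86 and 8.10 CPM with MyoD alone and 2.99, 0.251 and 0.312 CPM with F/R/C on day 10. The day-10 groups overlapped, though F/R/C was lower within each number, and the call was lost without the replicate block (highest adjusted p over the alternatives 0.057). Xirp2, an actin-binding protein of muscle attachment sites, rose with MyoD alone from 5.78, 10.7 and 1.41 to 251, 694 and 42.1 CPM, an uneven group, while F/R/C had 21.4, 45.5 and 22.5 CPM on day 2 and 41.03, 20.9 and 32.7 CPM on day 10. Its call was lost without the libraries numbered 1 (adjusted p 0.113). Opcml, an adhesion protein of neurons, had effects of 2.76 ± 0.40 and -1.86 ± 0.37. Among list members, Twist2, a repressor of MyoD in mesenchymal cells, and Areg, a ligand of the EGF receptor induced by cyclic AMP, went from higher to lower too (1.46 ± 0.36 and -1.54 ± 0.37, and 1.60 ± 0.45 and -1.97 ± 0.47).

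In the other direction, Stk26, a kinase, went from 2.89, 1.56 and 1.94 CPM with MyoD alone and 0.311, 0.185 and 0.322 CPM with F/R/C to 0.858, 0.743 and 0.308 CPM with MyoD alone and 4.27, 14.6 and 6.69 CPM with F/R/C, an interaction of 6.69 ± 0.80. Eya2 (chromosome 2, 165595032 to 165771727), a transcription cofactor of muscle precursors, measured 2.84, 3.40 and 2.07 CPM with MyoD alone and 0.711, 0.832 and 0.368 CPM with F/R/C on day 2 and 0.813, 1.07 and 0.103 CPM with MyoD alone and 13.9, 11.5 and 7.35 CPM with F/R/C on day 10. The arms were apart on both days in opposite order. MyoD alone fell by 2.26 log2 units and the F/R/C arm rose by 4.13. Kcnj12, an inward-rectifier potassium channel of muscle, and Dpysl5, of the collapsin response mediator family, moved mainly in the F/R/C arm, by 4.99 and 4.72. Tg, thyroglobulin, moved in the MyoD arm, from 24.9, 22.2 and 8.68 to 1.22, 1.53 and 0.718 CPM.

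Lfng, the glycosyltransferase that tunes Notch receptors, went from 3.61, 1.45 and 2.42 CPM with MyoD alone and 0.756, 0.832 and 0.368 CPM with F/R/C on day 2 to 7.40, 3.39 and 3.11 CPM with MyoD alone and 26.6, 28.00 and 11.4 CPM with F/R/C on day 10. Its effects were -1.96 ± 0.41 and 2.27 ± 0.35, and its call was lost without the libraries numbered 1 (adjusted p 0.0564), as was that of Lef1 (0.0635). Lef1, a transcription factor that partners beta-catenin, measured 3.13, 4.07 and 5.24 CPM with MyoD alone and 0.934, 0.740 and 0.782 CPM with F/R/C on day 2 and 3.43, 3.53 and 0.923 CPM with MyoD alone and 9.21, 7.24 and 6.21 CPM with F/R/C on day 10. Igfbp3, a carrier of insulin-like growth factors, measured 413, 376 and 426 CPM with MyoD alone and 215, 153 and 188 CPM with F/R/C on day 2 and 94.7, 85.4 and 43.4 CPM with MyoD alone and 206, 221 and 218 CPM with F/R/C on day 10. The change of 0.22 ± 0.23 in its F/R/C arm was not called, and MyoD alone fell by 2.47 log2 units.

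The days between were used by no class. Differences between same-numbered libraries were taken on days 4, 6 and 8 and are given without a test. For genes that went from higher to lower the class median was 0.82, 0.20 and -0.75, and for those that went from lower to higher it was -0.91, -0.14 and 1.00. The day-10 sign was present in 10 of the 71 genes on day 4, 32 on day 6 and 60 on day 8. Early-only effects shrank from day to day, with medians of 1.46, 1.17 and 0.46 in the higher genes and -1.10, -0.70 and -0.20 in the lower. Late-only effects built up from day 4 on, with medians of 0.63, 1.03 and 1.70 in the higher genes and -0.59, -0.88 and -1.32 in the lower. Single genes differed in timing. For Mymx the mean difference was -1.77 on day 2 and -0.76 on day 4. For Stum it was still -5.53 on day 4 and -4.19 on day 6, and for Opcml the sign had turned by day 4 (2.63, then -1.79).

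**Figure D5:**
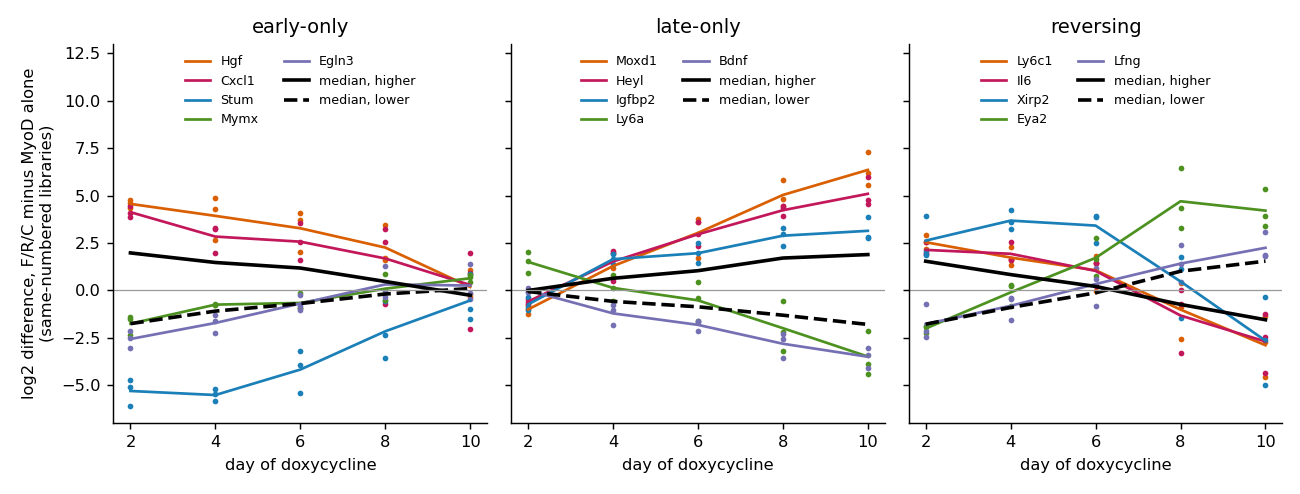
The y axis is the log2 difference of MyoD with F/R/C from MyoD alone in same-numbered libraries, the x axis the day, points are the 3 numbers, coloured lines gene means and black lines class medians (solid for genes higher with F/R/C on day 2, or on day 10 for late-only genes, dashed for lower). The early-only medians reach -0.27 and 0.09 on day 10, the late-only medians leave zero from day 4 on, and the reversing medians change sign between days 6 and 8.

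Libraries outside the contrast were read beside it. In established bulk iMPCs and untreated MEFs, 3 libraries each, 32.1% of all tested genes were above MEFs in every iMPC library and 28.6% were below. Of the 445 late-only higher genes 74.6% were above and 2.47% below. Of the 916 late-only lower genes 2.51% were above and 74.0% below. Genes with a called interaction and the same sign on both days were alike: 84.8% of the 46 higher were above and none below. Of the 90 lower 12.2% were above and 71.1% below. Early-only higher genes were 21.5% above and 34.9% below, early-only lower genes 63.7% above and 8.15% below. Of the 39 reversing genes that ended lower 21 were below MEFs and 2 above, and of the 32 that ended higher 24 were above and none below. No test was made of these shares. Moxd1 averaged 1.85 CPM in MEFs and 10.3 CPM in bulk iMPCs, Ly6a 227 and 29.1 CPM, and Lhx3 0 and 0.0370 CPM, below each of its 3 day-10 F/R/C libraries.

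Markers of other cells were checked over 7 lists. Endothelial markers summed to at most 11.2 CPM in any library and epithelial ones to at most 38.2 CPM, with Krt14 at 0 in every group. Adipocyte markers summed to between 62.6 and 92.4 CPM with MyoD alone and between 472 and 602 CPM with F/R/C on day 2, and between 109.9 and 241 and between 320 and 404 CPM on day 10, mostly Lpl and Cd36 (Lpl was not called in the interaction), while Cidec was at 0 in both arms on day 2. Marker sums of neurons and glia were between 77.3 and 156 CPM with MyoD alone on day 10 and between 35.6 and 53.2 CPM with F/R/C. Those of cartilage and bone were between 38.9 and 59.4 and between 21.5 and 27.6 CPM, and those of smooth muscle between 4185 and 9146 and between 3248 and 3651 CPM. In the interaction, 1 macrophage, 1 endothelial (Kdr), 1 adipocyte (Pparg), 1 cartilage and bone (Runx2) and 3 smooth muscle markers were more negative, and 1 epithelial marker (Krt8) was more positive. Of the 4 tested neuron and glia markers 1 was more positive and 1, Stmn2, more negative. The part of these markers in the results was not tested.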

How the data were processed

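RNA of 12 bulk cultures was read on polyadenylated, stranded, single-end libraries, per the labels' protocols. The deposited values are estimated counts per transcript that the authors made with kallisto 0.44 after Trimmomatic 0.36 on GRCm38.p6, per the submitters' processing notes. Estimated counts were summed over transcripts by gene through GENCODE M21 (99.5 to 99.7% of reads matched), rounded to whole numbers, and totalled 18.8 to 28.2 M reads per library. The split of reads between near-identical transcripts is an estimate, so copies and pseudogenes are uncertain.

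Genes with 10 or more reads in at least 3 libraries were fitted with edgeR 4.0.16 (R 4.3.3; TMM, quasi-likelihood test, 4 groups, the replicate number as a block, 6 residual degrees of freedom). All genes entered 1 Benjamini-Hochberg adjustment. SE is the absolute log2 fold change over the root of F. CPM are scaled by TMM. The same-numbered libraries share Y-linked and Xist levels (numbers 3 against 1 and 2), which is how pairing was checked beside correlations. On simulated counts of 15687 genes, 65 of 100 genes changed 4-fold and 13 of 100 changed 2-fold were called, with 8 false calls. The simulation added effects of treatment, day and number, and gave an interaction only to the changed genes. The block therefore held exactly there, and the false calls do not measure the error in the real data. DESeq2 1.42.0 and limma 3.58.1 were alternatives.

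Named genes were the 5 with the largest interaction per class and direction (protein-coding, at least 5 CPM in a group, all 3 pairs of 1 sign), the 3 with the smallest p in each of 17 lists, and list members needed for a count. Other list members given as examples, and the sequences, were chosen after their values were seen. The members and lists were chosen with earlier results of these data known. A few list members are not reported here.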

Additional observations from a re-analysis of the deposited data

Results flagged for a closer look

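The effect of F/R/C differed between day 10 and day 2 in 2120 genes by the interaction term, and in 71 of them the called effects had opposite signs. These genes are listed here because the same treatment gave a different effect at the 2 times. Among the genes that were higher with F/R/C on day 2 and lower on day 10, the interaction was -5.87 for Aldh1a7, -5.82 for Ly6c1, -5.24 for Xirp2, -4.98 for Il6 and -4.62 for Opcml. Among those that went from lower to higher it was 6.69 for Stk26, 6.39 for Eya2, 6.06 for Kcnj12, 5.26 for Dpysl5 and 4.87 for Tg (all log2).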

How the results depend on the processing

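The direction of each named gene's interaction held under all alternatives run, and 27 of the 74 called kept their call throughout. Most of these genes were chosen for their interaction in the main fit, so they do not stand for all called genes. Leaving out all libraries of 1 number lost the call of 40, 27 and 8 of them for numbers 1, 2 and 3, and the unblocked fit lost 19. Counts of genes moved more. Without the replicate block the interaction was called in 1398 genes, early-only genes numbered 153 and reversing genes 32. The other counts stayed within 1.5 times, and 1386 of the 1398 were shared with the blocked calls.

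With 45 libraries and no block the counts were 1044 for the interaction, 106 early-only, 763 late-only, 14 reversing and 856 on day 2. By adjusted p alone, with no fold threshold, they were 3263 for the interaction, 2320 late-only, 185 reversing, 2517 on day 2 and 7897 on day 10. Requiring an effect under 0.5 on the other day left 158 early-only and 845 late-only genes. RLE or upper-quartile factors, other filters, a prior count of 2, DESeq2 (2523 in the interaction) and limma-voom (2220) stayed within 1.5 times for every count, as did 30 libraries.

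Leaving out 1 number gave 285 to 2361 genes in the interaction, 31 to 209 early-only, 213 to 1631 late-only, 13 to 58 reversing, 381 to 1209 on day 2 and 2775 to 4728 on day 10. Leaving out 1 library gave 1332 to 2940, 129 to 325, 923 to 1965, 25 to 84, 821 to 1690 and 3450 to 4915. The lowest interaction counts came without library 2 of F/R/C on day 2 and library 3 of MyoD alone on day 2 (1345), and so did low early-only counts, 144 and 129. Leaving out 1 number with no block, an alternative chosen after seeing the data, gave 77, 751 and 543 genes in the interaction for numbers 1, 2 and 3. Early-only genes were then 6, 78 and 31, late-only 61, 558 and 426, reversing 6, 7 and 12, and day-2 genes 164, 414 and 352, with 2179 on day 10 without number 1. Fits without a number have fewer residual degrees of freedom. The cause was not tested.

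Deviations of same-numbered libraries from their group means correlated at 0.01065 to 0.4854 across genes, under 0.1 in 3 of 18 values, all of number 3 with F/R/C on day 10. In 17 of the 18 a library correlated best with its own number. Numbers 1 and 2 had Y-linked sums up to 0.723 CPM and Xist from 294 to 719.9 CPM, and number 3 had Y-linked sums from 152 to 165 CPM and Xist up to 0.133 CPM. Genes with few reads in a group limit the interaction: 107 had no read in at least 1 of the 4 groups, of either day.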
